A study of Mus musculus with 8 samples.

Results

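The genes described here are 10 genes that are widely used to mark endothelial cells, the cells that line blood vessels: Pecam1, Cdh5, Cldn5, Kdr, Flt1, Tek, Eng, Vwf, Egfl7 and Emcn. They were chosen by name, with earlier results of these data known, and 9 of the 10 were analysed among the 17127 genes of the deposited expression table. Emcn, which encodes the endothelial sialomucin endomucin, is not analysed here. RNA-seq was performed on whole testes of 4-month-old males, either wild type (WT in the labels, 4 libraries) or homozygous for a small CRISPR-Cas9 deletion in a coding exon of Iqch (Iqch-/- in the labels, 4 libraries). The deletions were made in B6CBAF1 zygotes and gave 2 lines. The labels do not name the line of each mutant library, and the study names Iqch mu7 in a plot of the RNA-seq coverage of Iqch. Mutant 3 is not analysed here (the study left out 1 mutant library as an outlier), so wild types 1 to 4 were compared with mutants 1, 2 and 4, 7 libraries in all. The question was which of the endothelial genes were higher and which were lower in the mutant testis.

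Values were CPM, that is, the reads of a gene scaled so that all genes of a library sum to 1000000. Libraries held 32064384 to 37551057 reads, so that 1 read was worth 0.0266 to 0.0312 CPM. Iqch itself fell from 208 ± 11.3 CPM (SD, n = 4) to 67.3 ± 2.25 CPM (SD, n = 3), and its groups did not overlap. The markers of testis cells were present in every library: the summed CPM of 8 spermatid genes ran from 11975 to 20169, and that of 8 Sertoli cell genes from 1208 to 2598. Each library is a separate mouse, so the p-values measure the spread between mice, the technical spread included.

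Endothelial cells of the testis line the vessels of the interstitium, beside the Leydig cells, and supply the tubules, which have no vessels inside. Vascular endothelial growth factor A (VEGF-A) signals through the receptor tyrosine kinase encoded by Kdr, whereas the receptor encoded by Flt1 binds the same ligand more tightly, signals weakly and exists in a soluble form that traps the ligand. The angiopoietin receptor encoded by Tek keeps vessels stable, and Eng encodes endoglin, a co-receptor for ligands of the TGFβ family. Cdh5 and Cldn5 encode the adherens junction protein VE-cadherin and the tight junction protein claudin-5, and Pecam1 an adhesion protein of the same cell borders. Vwf encodes von Willebrand factor, which is stored in endothelial granules and binds platelets, and Egfl7 a secreted protein whose gene hosts the microRNA miR-126. Several of these genes are also known outside endothelium: Pecam1 and Vwf in platelets or their precursors, Pecam1 in leukocytes, Eng in macrophages and Cldn5 in Sertoli cells.

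In the mutant testis, 3 of the 9 genes were higher, Kdr 3.51-fold, Cdh5 2.07-fold and Cldn5 1.75-fold, and none was lower at an FDR of 0.01 in limma (1, Vwf, at an unadjusted p under 0.05). The FDR is the p-value from limma adjusted over all 17126 genes tested with the Benjamini-Hochberg method. The remaining 6 genes (Pecam1, Eng, Egfl7, Flt1, Vwf and Tek) did not pass that threshold, with fold values from 0.819 for Tek to 1.54 for Pecam1. Across the whole table, 36.3% of genes passed it as higher and 14.2% as lower, so the share of endothelial genes that was higher was close to that of all genes. In whole tissue, more cells of a type and more RNA per cell cannot be told apart, and the same holds for fewer cells and less RNA per cell. CPM is also a share of all reads of a library, so a gene can be higher because other cells gave fewer reads. The study reported smaller testes in the mutants and, in older mice, a lower proportion of haploid germ cells. The part of this in the values was not tested.

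Promoter sequences of the receptor pair for VEGF-A, Kdr, which was higher, and Flt1, which did not pass the test, are shown because the values of the pair moved apart, together with that of Cldn5, the other higher gene with a window in the table used. Each holds 300 bases around the annotated start, most of them upstream of it and the rest downstream. They are written 5′ to 3′ on the strand of the gene, from the RefSeq table for GRCm38.p6. Capitals mark the letters AGGAAG or their reverse complement, a longer form of the core GGAA that ETS-family transcription factors of endothelium can bind. The shorter GGAA, which the Kdr window holds as well, was neither marked nor counted. The Kdr window is at chr5:75978406-75978705 on the minus strand, that of Flt1 at chr5:147725962-147726261 on the minus strand, and that of Cldn5 at chr16:18776597-18776896 on the plus strand.
Kdr: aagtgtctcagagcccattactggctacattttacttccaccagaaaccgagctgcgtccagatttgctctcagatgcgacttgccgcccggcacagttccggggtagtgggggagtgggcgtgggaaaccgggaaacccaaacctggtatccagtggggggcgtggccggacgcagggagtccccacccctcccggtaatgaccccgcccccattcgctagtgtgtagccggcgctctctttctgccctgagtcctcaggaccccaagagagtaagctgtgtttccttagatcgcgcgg
Flt1: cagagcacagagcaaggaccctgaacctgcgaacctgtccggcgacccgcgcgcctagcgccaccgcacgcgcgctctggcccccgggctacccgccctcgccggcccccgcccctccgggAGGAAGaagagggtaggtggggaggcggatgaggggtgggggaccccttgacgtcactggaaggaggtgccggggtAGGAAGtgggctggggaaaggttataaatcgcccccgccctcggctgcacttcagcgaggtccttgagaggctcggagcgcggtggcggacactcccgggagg
Cldn5: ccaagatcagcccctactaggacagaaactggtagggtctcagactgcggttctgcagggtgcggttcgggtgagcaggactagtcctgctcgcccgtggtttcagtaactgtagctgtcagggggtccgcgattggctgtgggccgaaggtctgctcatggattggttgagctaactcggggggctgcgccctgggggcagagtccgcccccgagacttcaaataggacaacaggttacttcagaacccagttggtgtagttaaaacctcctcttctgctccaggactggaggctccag
The Kdr and Cldn5 windows held AGGAAG 0 times and the Flt1 window held it 2 times. Among the other genes with a window in the table, Eng and Emcn held it 2 times each, Tek 0 times, and the 3 Egfl7 windows 3, 2 and 0 times. The letters CGGAAG, another longer form of the ETS core, and TGTTTAC, a forkhead core, were in none of the 9 windows of these 7 genes on either strand. Of all 32544 distinct promoters in the table, 35.1% held AGGAAG, 17.0% held CGGAAG and 3.66% held TGTTTAC. All 3 printed windows were richer in G and C than the median promoter (53.0%), with 60.7% for Kdr, 70.7% for Flt1 and 58.3% for Cldn5. They also held more CpG dinucleotides than the median of 7, with 19 in Kdr, 29 in Flt1 and 12 in Cldn5. A match of letters is a description of the window and not a binding site.

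Among the receptors, Kdr had the largest difference between groups of all 9 genes. Kdr (ENSMUSG00000062960, GRCm39 chr5:76093487-76139884, minus strand) was at 4.64, 2.94, 4.02 and 3.17 CPM in wild types 1 to 4 and at 12.4, 12.9 and 13.7 CPM in mutants 1, 2 and 4. Every mutant library was more than double the highest wild-type library. The means were 3.69 ± 0.782 CPM (SD, n = 4) and 13.0 ± 0.633 CPM (SD, n = 3). The log2 fold change was 1.81 (SE 0.15, 95% interval 1.49 to 2.13, limma FDR = 3.9e-07). These values rest on 101 to 445 reads per library.

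Flt1 (ENSMUSG00000029648, GRCm39 chr5:147498414-147662826, minus strand) was at 6.07, 6.64, 7.79 and 6.79 CPM in the wild types and at 6.64, 6.05 and 7.19 CPM in the mutants. The groups overlapped over nearly their whole range. The log2 fold change was -0.04 (SE 0.11, 95% interval -0.28 to 0.20, limma FDR = 0.772), an interval that leaves out a fold change as large as that of Kdr, Cdh5 or Cldn5.

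The ratio of Kdr to Flt1 within a library does not depend on the depth of that library. It was 0.764, 0.443, 0.516 and 0.467 in the wild types and 1.87, 2.13 and 1.90 in the mutants. Thus Flt1 had more reads than Kdr in each wild type, and Kdr had more than Flt1 in each mutant. Reads are not scaled for exon length. As CPM for each kb of annotated exon, Kdr was above Flt1 in wild type 1 (0.504 against 0.445) and below it in the other wild types. The ratio of Kdr to Tek also rose, from 0.884 ± 0.328 (SD, n = 4) to 3.69 ± 0.220 (SD, n = 3). Both pairs were chosen after the values were seen, and no test was made of them.

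Tek (ENSMUSG00000006386, GRCm39 chr4:94627291-94763224, plus strand) was at 3.53, 4.05, 4.26 and 5.73 CPM in the wild types and at 3.45, 3.27 and 3.87 CPM in the mutants. Wild type 4 was the highest, and wild type 1 lay inside the range of the mutants. The log2 fold change was -0.29 (SE 0.16, 95% interval -0.63 to 0.06, limma FDR = 0.133). Eng (ENSMUSG00000026814, GRCm39 chr2:32535543-32574661, plus strand) was at 5.89, 4.11, 4.32 and 4.69 CPM in the wild types and at 6.26, 4.74 and 5.81 CPM in the mutants, with a log2 fold change of 0.24 (SE 0.15, limma FDR = 0.173). For Eng, wild type 1 lay above mutants 2 and 4. In GENCODE M39, 860 of the 7798 exonic bases of Eng are shared with Fpgs on the opposite strand, and the strand setting of the counting is not given in the sources used here, so part of its reads could belong to Fpgs.

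Among the junction genes, Cdh5 (ENSMUSG00000031871, GRCm39 chr8:104828231-104871143, plus strand) was at 5.45, 4.05, 4.29 and 4.42 CPM in the wild types and at 9.85, 9.01 and 9.55 CPM in the mutants. The gap between the groups was wider than the range within either. The means were 4.55 ± 0.615 CPM (SD, n = 4) and 9.47 ± 0.426 CPM (SD, n = 3), with a log2 fold change of 1.05 (SE 0.12, 95% interval 0.80 to 1.30, limma FDR = 6.7e-06). Only 1.99% of its exonic bases lie under another annotated gene.

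Cldn5 (ENSMUSG00000041378, GRCm39 chr16:18595597-18597012, plus strand, 1 exon) was at 3.29, 3.67, 4.02 and 4.18 CPM in the wild types and at 5.86, 7.45 and 6.79 CPM in the mutants. All mutants lay above all wild types. The means were 3.79 ± 0.395 CPM (SD, n = 4) and 6.70 ± 0.800 CPM (SD, n = 3), with a log2 fold change of 0.80 (SE 0.13, 95% interval 0.53 to 1.08, limma FDR = 1.4e-04).

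Pecam1 (ENSMUSG00000020717, GRCm39 chr11:106543689-106641454, minus strand) had the fewest reads of the 9 genes, 48 to 117 per library. It was at 2.33, 1.40, 1.95 and 2.21 CPM in the wild types and at 2.93, 3.65 and 2.64 CPM in the mutants. The groups did not overlap, but the log2 fold change of 0.63 (SE 0.19, 95% interval 0.20 to 1.05) missed the threshold, with a limma FDR of 0.0135. The ratio of Cdh5 to Pecam1, chosen after the values were seen, was 2.36 ± 0.384 (SD, n = 4) in the wild types and 3.15 ± 0.602 (SD, n = 3) in the mutants, and the groups overlapped.

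Of the secreted products, Vwf (ENSMUSG00000001930, GRCm39 chr6:125523737-125663642, plus strand) had the most reads, 486 to 712 per library. It was at 18.1, 18.1, 18.1 and 19.0 CPM in the wild types and at 15.5, 15.2 and 16.7 CPM in the mutants. Every mutant was below every wild type, and the wild types varied least of all 9 genes. The log2 fold change was -0.21 (SE 0.07, 95% interval -0.36 to -0.07), which missed the threshold with a limma FDR of 0.0142 on the deposited scale and passed it as lower after size factors.

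Egfl7 (ENSMUSG00000026921, GRCm39 chr2:26468286-26486789, plus strand) was at 5.56, 5.91, 5.60 and 6.34 CPM in the wild types and at 6.09, 7.64 and 6.14 CPM in the mutants. Mutant 2 stood above the rest, and mutants 1 and 4 lay below wild type 4. The log2 fold change was 0.17 (SE 0.11, 95% interval -0.08 to 0.41, limma FDR = 0.208). Of its exonic bases 17.8% are shared with other genes, mainly Agpat2 on the opposite strand (13.6%), so its reads are uncertain in part.

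**Figure D1:**
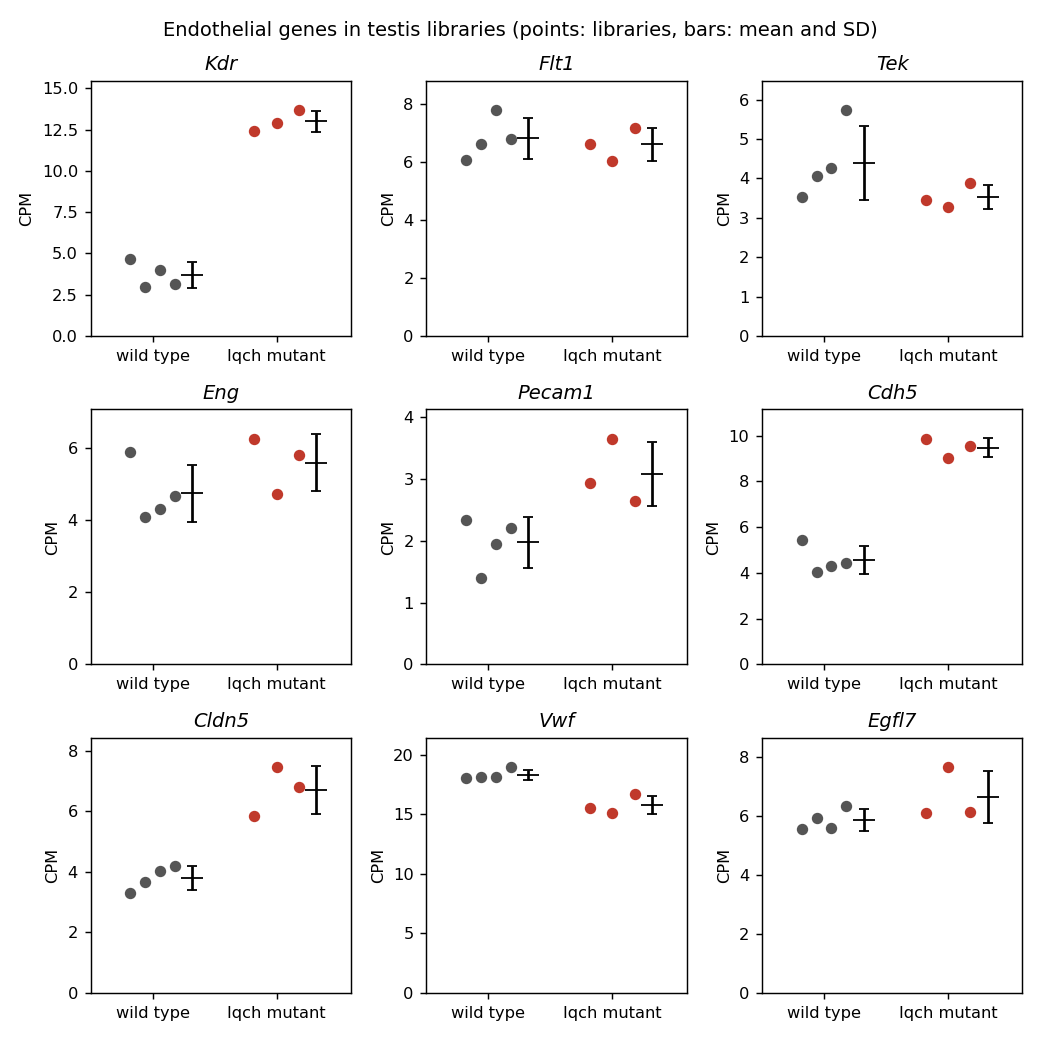
CPM (y axis, from 0, with its own range in each panel) of the 9 endothelial genes in wild-type (grey, 4 libraries) and Iqch mutant testes (red, 3 libraries); points are libraries, and bars give the mean and SD. Kdr, Cdh5, Cldn5 and Pecam1 have all mutant points above all wild-type points, Vwf has them all below, and the groups overlap for Flt1, Tek, Eng and Egfl7.

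Counted without a model, the mutant libraries lay above all wild types for 4 genes (Kdr, Cdh5, Cldn5 and Pecam1), below them for 1 (Vwf), and overlapped them for the other 4. Over all genes, 42.8% had every mutant above every wild type and 19.5% had every mutant below. With the genotype labels exchanged in all 35 possible ways, the 5 genes without overlap had an exact permutation p = 0.0286 each (two-sided, the smallest that this design allows). The same exact permutation test gave p = 0.143 for Tek, 0.143 for Egfl7, 0.229 for Eng and 0.686 for Flt1. The summed CPM of the 9 genes was 50.9 to 56.5 in the wild types and 69.0 to 72.3 in the mutants. Kdr had the largest rise in CPM within that sum (mean 3.69 to 13.0 CPM), followed by Cdh5 and Cldn5. The means of Vwf, Tek and Flt1 were lower in the mutants.

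No library was the highest of its group for all 9 genes, and none was the lowest for all 9. Among the wild types, wild type 1 was the highest for 4 genes and the lowest for 5, so it was at an end of its group for every gene. Wild type 2 was the lowest for 4, and wild type 4 the highest for 4. Among the mutants, mutant 2 was the highest for 3 and the lowest for 5. The spread, as the SD in percent of the mean, ran from 2.33% for Vwf to 21.4% for Tek in the wild types and from 4.50% for Cdh5 to 16.9% for Pecam1 in the mutants. Without any 1 library, the log2 fold change stayed between 1.71 and 1.92 for Kdr, between 1.00 and 1.14 for Cdh5 and between 0.73 and 0.90 for Cldn5.

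Levels of different genes were compared as CPM for each kb of annotated exon. In the wild types Cldn5 was the highest at 2.68, followed by Vwf at 1.10 and Cdh5 at 1.04. These last 2 genes did not differ beyond their spread in the wild types. Egfl7 and Tek (both 0.731), Eng (0.609), Flt1 (0.500) and Kdr (0.401) followed in a range where neighbours lay within their spread, and Pecam1 was the lowest at 0.197. In the mutants Cldn5 was again the highest at 4.73, followed by Cdh5 at 2.16 and Kdr at 1.41, ahead of Vwf at 0.944. Kdr thereby moved from rank 8 to rank 3 of the 9 genes, and Pecam1 stayed at rank 9 with 0.307. Flt1 was at 0.485 and Tek at 0.588 in the mutants. The order uses the length of all annotated exons, which can exceed that of the transcripts present.

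**Figure D2:**
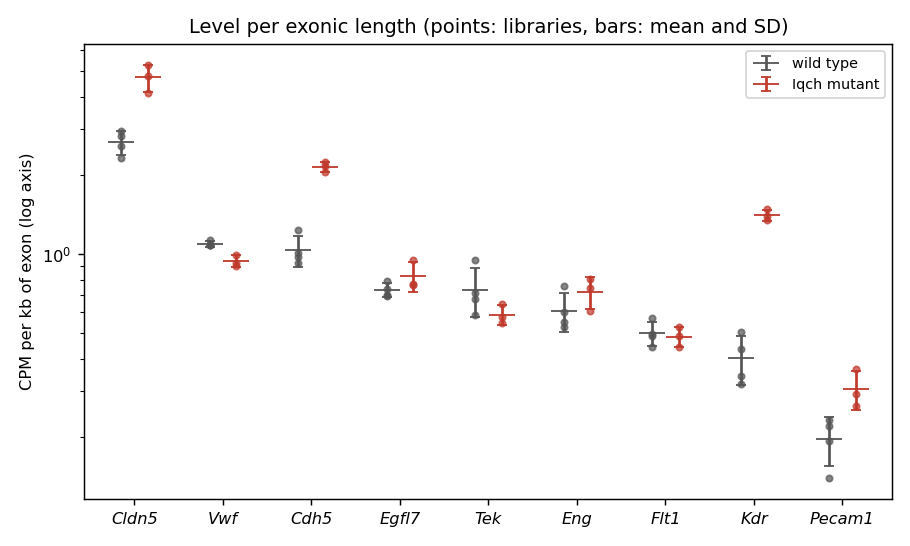
Level of each endothelial gene as CPM per kb of annotated exon (log y axis) in wild-type (grey) and Iqch mutant (red) libraries, with genes ordered by the wild-type mean; bars give the mean and SD. Kdr lies at 0.401 in the wild types and 1.41 in the mutants, and Pecam1 is the lowest in both groups.

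The scale of the table bears on the genes with small changes. Over the whole table the median gene had a log2 fold change of 0.12 as deposited, and of -0.01 once median-of-ratios size factors had set the typical gene level between libraries. The median of the 9 endothelial genes was 0.24 on the deposited scale and 0.10 after size factors. Relative to the deposited median of all genes, Kdr was at 1.69, Cdh5 at 0.93, Cldn5 at 0.68, Pecam1 at 0.51, Eng at 0.12, Egfl7 at 0.05, Flt1 at -0.16, Vwf at -0.34 and Tek at -0.41 on the log2 scale.

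After size factors, Kdr (log2 fold change 1.68, limma FDR = 8.5e-07), Cdh5 (0.92, limma FDR = 2.4e-05) and Cldn5 (0.67, limma FDR = 4.5e-04) were again higher. Vwf was now lower (-0.35, limma FDR = 5.6e-04). The background then was 27.0% of genes higher and 25.1% lower, against 3 and 1 of the 9 endothelial genes. Pecam1 (0.50, limma FDR = 0.0395) and Tek (-0.42, limma FDR = 0.0338) did not pass, nor did Flt1, Eng and Egfl7.

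**Figure D3:**
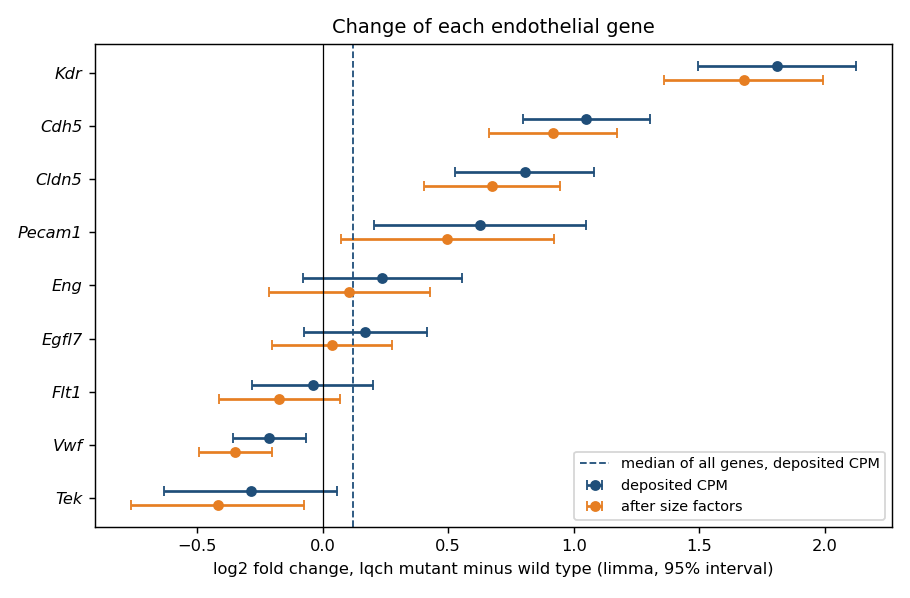
Log2 fold change of each endothelial gene, Iqch mutant against wild type, with its 95% interval (x axis), on deposited CPM (blue) and after size factors (orange); the dashed line is the median of all genes, 0.12. Kdr, Cdh5 and Cldn5 have intervals wholly to the right of that line on both scales, and the points of Flt1, Vwf and Tek lie to the left of 0.

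The ligands and partners of these receptors were read from a list of 14 genes, of which 10 were analysed. In this list 6 were higher and 1 was lower, on the deposited scale and after size factors alike, and the median log2 fold change was 0.66. For this list and those that follow, the share over all genes was 36.3% higher and 14.2% lower. After size factors that share was 27.0% higher and 25.1% lower. Vegfa, the main ligand of the receptors encoded by Kdr and Flt1, rose from 5.21 ± 0.557 CPM (SD, n = 4) to 7.87 ± 0.588 CPM (SD, n = 3), a log2 fold change of 0.59 (limma FDR = 6.4e-04). Vegfb and Pgf encode ligands that bind the Flt1 receptor and not that of Kdr. Vegfb rose by 0.73 and Pgf by 0.78 on the log2 scale. Vegfd, a ligand better known from lymphatic vessels, had 2.33 to 5.49 CPM in the wild types and 12.5 to 13.8 CPM in the mutants (log2 fold change 1.85).

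Nrp1, a co-receptor that binds VEGF-A together with the Kdr product, rose from 2.87 to 8.01 CPM (log2 fold change 1.43, limma FDR = 8.3e-06). Apln, a peptide ligand made by sprouting endothelial tip cells and by other cells, rose from 8.48 ± 2.36 CPM (SD, n = 4) to 34.1 ± 5.28 CPM (SD, n = 3). The gene that fell was Ptprb, the phosphatase that acts on the receptor encoded by Tek and on VE-cadherin. It went from 10.7 ± 1.52 CPM (SD, n = 4) to 6.22 ± 1.08 CPM (SD, n = 3), a log2 fold change of -0.78 (limma FDR = 2.9e-04). Angpt2, a ligand of the Tek receptor, was at 2.53 CPM in the wild types and 2.74 CPM in the mutants (limma FDR = 0.589). Flt4, the receptor for the Vegfd product, was at 14.4 CPM in the wild types and 13.4 CPM in the mutants (log2 fold change -0.11, limma FDR = 0.25; after size factors -0.25, limma FDR = 0.0162). Nrp2, a co-receptor of lymphatic and venous endothelium, was at 8.57 and 8.10 CPM (log2 fold change -0.08, limma FDR = 0.502). Vegfc, Angpt1 and Tie1 are not analysed here.

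Of 14 genes for Notch, BMP and sphingosine signals in endothelium (receptors, ligands and intracellular factors) 10 were analysed, of which 4 were higher and 0 lower in limma (also 0 lower at an unadjusted p under 0.05), with a median of 0.24. The share that was higher was close to that of all genes, 36.3%. Acvrl1, the BMP receptor that works with endoglin, rose from 3.10 to 6.53 CPM (log2 fold change 1.09, limma FDR = 1.8e-04). Notch1 and the BMP receptor gene Bmpr2 rose by 0.77 each on the log2 scale, and the fourth was S1pr1, a sphingosine phosphate receptor (0.68). After size factors 3 were higher, without S1pr1, and Jag1, which encodes a Notch ligand, was lower.

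Of 15 further endothelial surface and junction genes, 10 were analysed; 5 were higher and 1, again Ptprb, was lower, with a median of 0.50. Robo4, an endothelial guidance receptor that stabilises vessels, had the largest fold change in these lists of endothelial genes, from 1.11 ± 0.341 CPM (SD, n = 4) to 11.8 ± 0.710 CPM (SD, n = 3), with a log2 fold change of 3.35. Plvap, which forms the diaphragms of fenestrated capillaries, rose from 0.903 to 3.68 CPM. Robo4 and Plvap had no wild-type library at the read minimum of the table, so that their presence in the table depended on the mutants. Jam2 (0.86) and F11r (0.84), both for junction proteins found in epithelia as well, and Podxl (0.58) were the other 3. After size factors 4 were higher, without Podxl.

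Of 14 transcription factors of endothelium, 6 were analysed and none was higher in limma (2, Ets1 and Klf2, at an unadjusted p under 0.05). Gata2, a zinc finger factor of endothelial and blood cells, fell from 31.4 to 18.6 CPM (log2 fold change -0.76, limma FDR = 9.9e-06), while the median of the list was 0.02. Of 11 activation and leukocyte adhesion genes, 7 were analysed and 4 were higher, with a median of 0.73. They were Vcam1, the adhesion receptor for leukocytes (67.4 to 246 CPM, log2 fold change 1.84), F3, which encodes tissue factor (1.15), Icam1, another leukocyte adhesion receptor (0.98), and Plat, which encodes tissue plasminogen activator (0.73). Icam1 had overlapping groups and did not pass after size factors (limma FDR = 0.0149). Which cells of the testis gave the reads of these 4 genes was not tested. Of the lymphatic endothelial genes 5 of 7 were analysed, and Pdpn alone was higher (log2 fold change 1.17), with a median of 0.01 for the list. Flt4, Nrp2, S1pr1, Jag1, F11r, Podxl, Plat, Ets1 and Klf2 were named after their values were seen, to complete these counts and lists. The same holds below for Mcam, Hba-a1, Hba-a2, Alas2, Ptprc and Cd14.

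**Figure D4:**
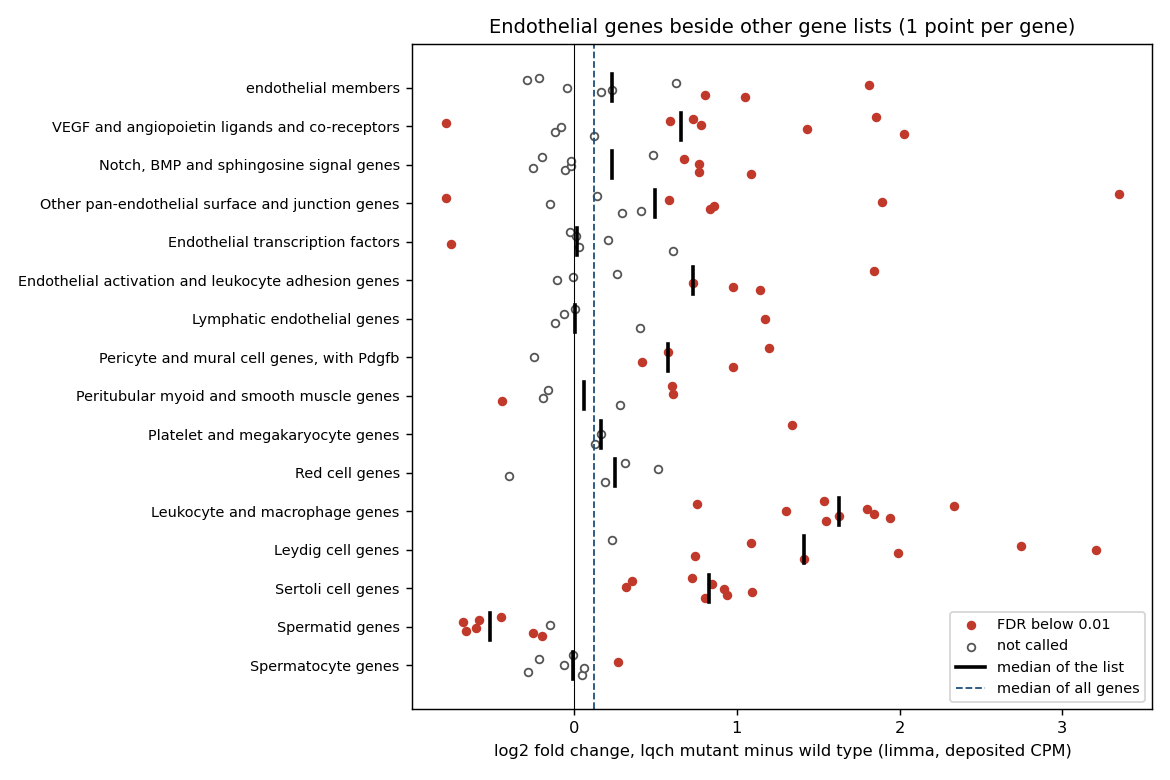
Log2 fold change, Iqch mutant against wild type (x axis), of each analysed gene of the endothelial set and of 15 other lists, with 1 point per gene, filled red where the FDR was below 0.01; the black bar is the median of each list and the dashed line that of all genes. The endothelial genes spread from -0.29 to 1.81, the macrophage and Leydig cell lists lie mostly to the right, and the spermatid genes lie to the left of 0.

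Genes of other cell types of the testis moved in the same libraries. In a list for pericytes and mural cells, which wrap small vessels, 5 of 9 genes were analysed, and 4 were higher: Rgs5 (log2 fold change 1.20), Abcc9 (0.98), Pdgfb (0.58) and Mcam. Of these, Pdgfb encodes a ligand that endothelium makes to recruit pericytes, and Mcam is also found in endothelium. The summed CPM of all 5 analysed genes, with the gene that was not higher included, was 20.8 to 23.0 in the wild types and 27.5 to 38.9 in the mutants. After size factors 2 were higher. Rgs5 varied most, with 11.8 CPM in mutant 2 and 4.05 CPM in mutant 4. Of 6 peritubular myoid and smooth muscle genes analysed, Des (0.61) and Myl9 (0.60) were higher and Actg2 (-0.44) was lower.

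Blood cells in the vessels could also carry some of these transcripts. Red cell genes gave 31.8 to 47.0 summed CPM in the wild types and 36.4 to 49.4 CPM in the mutants, and none of the 4 analysed passed the limma test (Hba-a2 and Alas2 as higher and Hba-a1 as lower at an unadjusted p under 0.05). The 2 alpha-globin genes, Hba-a1 and Hba-a2, are near-identical copies, so the division of reads between them is uncertain. Of 3 platelet and megakaryocyte genes analysed, Pf4 was higher (1.61 to 4.36 CPM, log2 fold change 1.34). The summed CPM of these 3 was 6.82 to 8.20 in the wild types and 9.40 to 11.8 in the mutants. All 9 leukocyte and macrophage genes analysed, of 10 listed, were higher, with a median log2 fold change of 1.63 and a summed CPM of 77.9 to 86.0 in the wild types and 238 to 272 in the mutants. Among them were Lyz2 (2.34), C1qa (1.94) and Cd163 (1.84), which are macrophage products. As with Robo4 and Plvap, Ptprc, Cd14 and Pf4 had no wild-type library at the read minimum of the table, and Cd163 and S1pr1 had 1, so that the mutants alone met the rule of 2 libraries.

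Of the 7 Leydig cell genes 6 were higher, with a median of 1.42 and a summed CPM of 1021 to 1224 in the wild types and 4296 to 4472 in the mutants. The 8 Sertoli cell genes analysed were higher (6 after size factors), with a median of 0.83 and a summed CPM of 1208 to 1312 in the wild types and 2482 to 2598 in the mutants. Of the 8 spermatid genes 7 were lower, with a median of -0.52 and a summed CPM of 19023 to 20169 in the wild types and 11975 to 13884 in the mutants. Of the 7 spermatocyte genes 1, Spo11, was higher on the deposited scale, and after size factors none was higher and 3 (Sycp1, Piwil1 and Meiob, named after their values were seen) were lower. The part of the macrophage, Leydig, Sertoli, mural and germ cell genes in the values of the endothelial genes was not tested.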

How the data were processed

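Total RNA of whole testes was sequenced from TruSeq libraries. The authors used Trimmomatic for trimming, Subread for mapping to GRCm39 and featureCounts for counting, and retained a gene if 2 samples of either group had 75 reads or more. The authors' own calls came from edgeR and DESeq2. The annotation release and the strand setting are not given in the sources used here. The authors deposited CPM values, which sum to 1000000 in each library, with all values whole multiples (within 0.01) of the step of 1 read. All 9 endothelial genes analysed reached 75 reads in at least 2 libraries of both groups.

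Genes with at least 2.2 CPM in 2 libraries of a group were tested with limma 3.58.1 (R 4.3.3; lmFit, eBayes with trend) on log2(CPM + 0.1), so fold changes of low genes are understated. P-values were adjusted over 17126 genes with the Benjamini-Hochberg method (FDR of 0.01). The fit was tested on simulated data with 200 or 0 changed genes. With 200 it called all 200 and 5 unchanged genes, and with 0 it called 0. So few changed genes cannot test how the calls depend on the scale. Exon lengths, positions and shared exons (of the endothelial genes only) came from GENCODE M39, in which 99.5% of genes were found. Size factors and TMM factors were computed from the CPM. Other steps used Python 3.11.15, NumPy 2.4.6, pandas 2.3.3 and matplotlib 3.10.9.

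The genes and lists were chosen with earlier results of these data known. Named were all 10 genes, Iqch, Vegfa, Vegfb, Vegfc, Pgf, Nrp1, Angpt1, Angpt2 and Tie1, and up to 3 called genes per list and direction with the largest fold change. The alternatives tried were other pseudocounts, minima, scalings and thresholds, sample weights, the replicate number as a block and each library left out.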

Additional observations from a re-analysis of the deposited data

Results flagged for a closer look

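In 48 genes checked for a wild-type library that stands apart from the other 3 (by the 95% value of Dixon's test), 3 were found, and chance gives about 1 in 20. Vwf was at 18.96 CPM in wild type 4, against 18.10 to 18.12 CPM in the others, a narrow range. Acvrl1 was at 4.49 CPM in wild type 1, against 2.48 to 2.80 CPM. Pf4 was at 1.31 CPM in wild type 3, against 1.69 to 1.74 CPM.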

How the results depend on the processing

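Kdr, Cdh5 and Cldn5 passed the FDR of 0.01 as higher in all 16 alternatives, with log2 fold changes of 1.59 to 1.92, 0.92 to 1.14 and 0.67 to 0.90. Without each library in turn, 3 endothelial genes were called in every case, 3 higher and 0 lower, while all genes called ran from 7237 to 8503 and called genes of the related lists from 53 to 62. Iqch stayed between -1.66 and -1.60. Size factors and TMM factors each gave 1 gene called lower, Vwf (-0.35 and -0.33), against 0 on deposited CPM. At an FDR of 0.05, 5 genes were called, with Vwf as 1 lower (-0.21) and Pecam1 higher (0.63), against 10762 of all 17126 genes. Flt1, which was called in none, changed sign with sample weights (0.0029), the replicate block (0.0248), without wild type 3 (0.0248) and without mutant 2 (0.0228). A minimum of 5 CPM left out Pecam1 and Tek. Same-numbered libraries did not deviate together (r = 0.03, 0.0094 and -0.10). This gave no sign of pairing by number, but so few pairs cannot exclude it. With the replicate block on libraries 1, 2 and 4 of each group, 3 endothelial genes and 7705 genes in all were called, against 8275 on the same 6 libraries without it. The planned edgeR and DESeq2 tests were not run, and all tests stayed on the CPM scale. Depth limits Pecam1 most, with 48 reads in 1 library.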
